A study of Bos taurus with 9 samples.

Results

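Proteases that cut the matrix or work in lysosomes, and the TIMP and serpin families that hold such enzymes in check, were followed across muscle and fat of cattle. Members were found by symbol: matrix metalloproteinases (MMP), ADAM and ADAMTS proteases, cathepsins (CTS), tissue inhibitors of metalloproteinases (TIMP) and serpins (SERPIN). The rule gave 63 genes with 100 probe sets, of 9155 genes with a single symbol and 24016 probe sets tested. They comprised 39 proteases, namely 11 MMP, 9 ADAM, 7 ADAMTS and 12 cathepsin genes, and 24 inhibitors, namely 4 TIMP and 20 serpin genes. The split follows the family names: ADAMTSL2 lacks a protease domain, ADAM2 and ADAM23 are not active proteases, and SERPINH1, SERPINF1 and the hormone-binding SERPINA6 and SERPINA7 do not inhibit proteases.

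Gene expression was measured on a 1-colour Affymetrix bovine array in Yan yellow cattle, all bulls aged 24 months and reared under the same conditions without a treatment. Tissue was taken at slaughter from longissimus dorsi muscle (3 arrays), abdominal adipose tissue (3 arrays) and subcutaneous adipose tissue (3 arrays). The labels count 9 bulls and do not tie samples to animals, so p-values reflect only how these samples varied, which may be partly technical. Levels are the log2 of the deposited intensity of 1 probe set per gene, the brightest over the 9 arrays, and a difference of 1 on that scale is a doubling.

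Metalloproteinases of the MMP and ADAMTS families cleave collagens, proteoglycans and other matrix proteins outside the cell, and ADAM proteases release membrane proteins from the cell surface. The TIMPs bind the active site of MMPs and of some ADAM and ADAMTS enzymes. Cathepsins digest proteins in lysosomes and can be secreted. Inhibitory serpins trap serine proteases, such as those of clotting, complement and fibrinolysis, in a stable complex. In fat, matrix turnover accompanies the growth of adipocytes and of their blood vessels.

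Marker genes were checked against the tissue labels. All 6 adipocyte markers measured were higher in fat, and 6 of 8 skeletal muscle markers were lower there, but the probe sets annotated as CKM and MYH7 were higher in fat by 1.46 and 0.60, and whether they read those genes was not tested. Array medians lay between 5.75 and 5.92 and averaged 0.12 higher in fat. The 3'/5' signal ratio of GAPDH, a sign of RNA integrity, was 0.937 to 1.01 in muscle and 1.21 to 1.74 over both depots; its part in the differences from muscle was not tested. The hybridization control BioB read 172 on abdominal replicate 3 and 54.6 to 106 on the other arrays; without that array 36 of 63 members were called between fat and muscle, against 39 with it. A level of 6 was taken as near background: 36 of the 63 members had a tissue mean above it, and the other 27 are dim, so small differences among those are of uncertain meaning. In whole tissue, fewer cells of a type and less RNA per cell cannot be told apart.

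Adipose tissue was compared with muscle using the mean of both depots. Of the 63 members, 31 were higher in fat, 8 were lower and 24 did not pass the test (limma, adjusted p under 0.05). Among all genes, 32% were called higher and 29.5% lower, and 52.6% of all probe sets were called in either direction. The shares among the members were 49.2% higher and 12.7% lower. Their median difference was 0.60, against -0.02 over all genes. Members with the same role divided by family. The 12 cathepsins had 11 calls, all higher, and a median difference of 1.68. The 4 TIMPs were all higher, with a median of 2.59. The 20 serpins split into 7 higher and 5 lower with a median of -0.14, and the 9 ADAM genes had 2 calls, both higher, with a median of -0.05. Taken by role, 20 of 39 proteases were higher and 3 lower (median 0.71), and 11 of 24 inhibitors were higher and 5 lower (median 0.37). The share of calls that were higher was 79.5%, and 65.2% when each array was centred on its median.

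**Figure D1:**
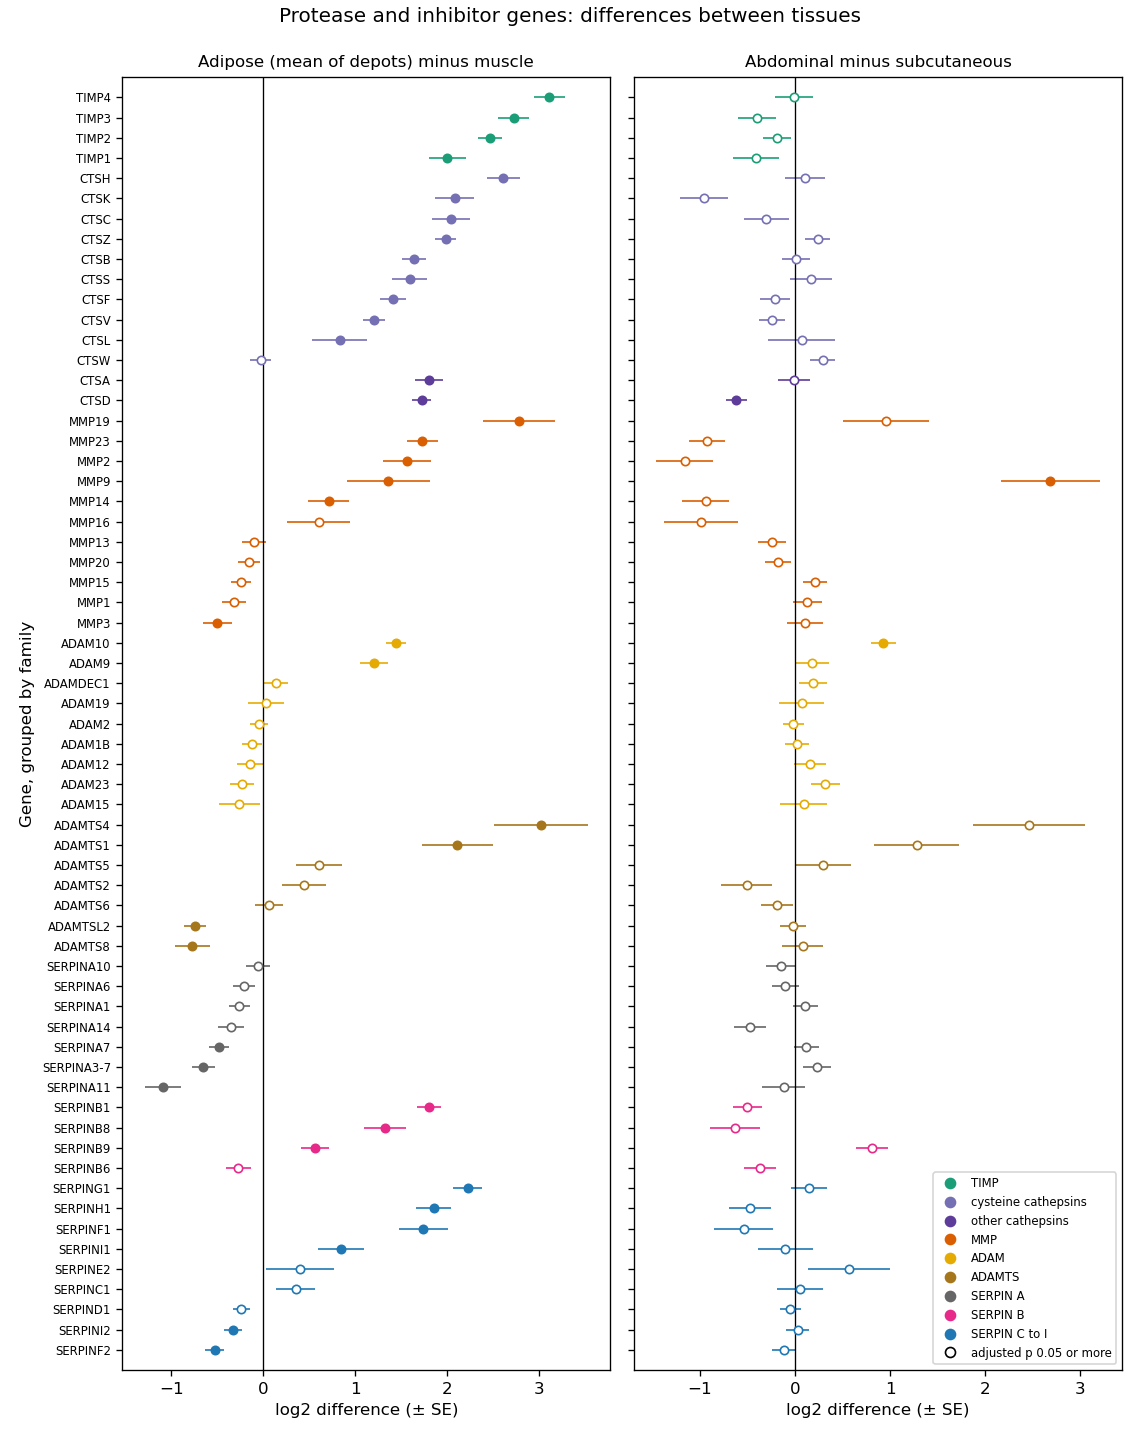
Differences on the log2 scale for each of the 63 members, coloured by family, with fat (averaged over its depots) against muscle in the left panel, abdominal against subcutaneous fat in the right panel, and bars for the moderated standard error. Filled points passed an adjusted p of 0.05 and open points did not: on the left the 4 TIMPs and 11 of 12 cathepsins pass to the right of 0 while serpins lie on both sides, and on the right MMP9, ADAM10 and CTSD are the 3 filled points.

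TIMP4 (gene 317694) had the largest difference of all members. Its levels were 7.54, 8.38 and 8.23 in muscle, 11.04, 11.27 and 11.15 in abdominal fat, and 11.09, 11.11 and 11.30 in subcutaneous fat. All 6 adipose arrays lay above all 3 muscle arrays and the depots lay within a narrow band. The difference was 3.11 ± 0.17 (SE, n = 6 and 3), or 8.62-fold (limma, adjusted p = 6.52e-07). Another of its probe sets gave 3.19 and a dim one 0.86, both called.

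TIMP3 (gene 282094), which stays bound to the matrix and also inhibits ADAM and ADAMTS enzymes, had levels of 6.95, 6.95 and 7.34 in muscle, 9.75, 9.85 and 9.19 in abdominal fat and 9.77, 10.04 and 10.16 in subcutaneous fat. The difference was 2.72 ± 0.17 (SE), or 6.57-fold (limma, adjusted p = 1.41e-06). TIMP2 (gene 282093), which both inhibits MMP2 and takes part in its activation, had levels of 10.41, 10.08 and 10.13 in muscle, 12.71, 12.58 and 12.42 in abdominal fat and 12.71, 12.58 and 13.01 in subcutaneous fat. Its muscle arrays were all far below its adipose arrays, by 2.46 ± 0.13 or 5.51-fold (limma, adjusted p = 5.35e-07).

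TIMP1 (gene 282092), a secreted inhibitor of most MMPs, had levels of 8.77, 8.11 and 8.65 in muscle, 10.08, 10.21 and 10.63 in abdominal fat and 10.35, 11.05 and 10.75 in subcutaneous fat. The groups did not overlap and the difference was 2.0 ± 0.20, or 3.99-fold (limma, adjusted p = 2.59e-05). For all 4 TIMPs the mean was highest in subcutaneous fat, but the differences between the depots, from -0.41 to -0.01, did not pass the test. All 4 remained higher in fat under every alternative processing tried.

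Among the cysteine cathepsins, 9 of 10 were higher in fat. CTSH, an aminopeptidase of the lysosome, had levels of 8.27, 7.64 and 8.09 in muscle, 10.52, 10.68 and 10.80 in abdominal fat and 10.37, 10.35 and 10.95 in subcutaneous fat. Every adipose array was above every muscle array, by 2.61 ± 0.18 or 6.12-fold (limma, adjusted p = 2.13e-06). CTSK, an enzyme that degrades collagen and elastin and is best known from osteoclasts, had levels of 9.76, 9.25 and 9.75 in muscle, 10.67, 11.68 and 11.23 in abdominal fat and 12.01, 12.09 and 12.35 in subcutaneous fat. Its 3 subcutaneous arrays were the highest, and the difference of fat from muscle was 2.08 ± 0.21 or 4.23-fold (limma, adjusted p = 2.7e-05).

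CTSC, which activates the serine proteases of immune cell granules, was higher in fat by 2.04 ± 0.21. CTSZ, a carboxypeptidase, varied little within muscle and within subcutaneous fat. Its levels were 8.26, 8.25 and 8.29 in muscle, 10.17, 10.60 and 10.32 in abdominal fat and 10.10, 10.10 and 10.18 in subcutaneous fat. Its difference was 1.98 ± 0.11, or 3.95-fold (limma, adjusted p = 6.89e-07). CTSB and CTSS, broad endopeptidases of which CTSS serves antigen presentation, were higher by 1.64 ± 0.13 and 1.59 ± 0.19. Of 6 probe sets of CTSB, 5 were called higher in fat and a dim one had no call, at -0.01. CTSF and CTSV, the latter a close relative of CTSL, were higher by 1.41 and 1.20.

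CTSL was dim, with levels of 3.84, 3.69 and 3.64 in muscle, 4.78, 3.81 and 5.18 in abdominal fat and 5.14, 4.06 and 4.37 in subcutaneous fat. An abdominal array fell within the muscle range, and the difference of 0.83 ± 0.30 was close to the threshold (limma, adjusted p = 0.0409). It lost its call when arrays were centred on their medians (0.72, adjusted p = 0.0635) and when any 1 array other than abdominal or subcutaneous replicate 2 was left out (adjusted p of 0.0553 to 0.103). CTSW, known from cytotoxic lymphocytes, was the remaining cysteine cathepsin and showed a difference of -0.03 ± 0.11 (limma, adjusted p = 0.833).

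The 2 cathepsins of other catalytic types were also higher in fat. CTSA, a serine carboxypeptidase that protects lysosomal glycosidases, was higher by 1.80 ± 0.15. CTSD, the main aspartic protease of lysosomes, had levels of 9.40, 9.38 and 9.51 in muscle, 10.94, 10.86 and 10.72 in abdominal fat and 11.40, 11.54 and 11.45 in subcutaneous fat. Its 3 tissues did not overlap, and fat exceeded muscle by 1.72 ± 0.10 or 3.30-fold (limma, adjusted p = 7.35e-07).

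Most of the other lysosomal genes listed moved in the same direction as the cathepsins. Of 16 measured genes for lysosomal sorting, lysosomal enzymes and control of cysteine proteases, 11 were higher in fat, 1 was lower and 4 had no call. The shares were 68.8% higher and 6.25% lower, against 32% and 29.5% among all genes. CST3, the secreted cathepsin inhibitor cystatin C, was higher by 1.76 ± 0.10, the glycosidase GUSB by 1.58 ± 0.15 and the membrane protein LAMP1 by 1.01 ± 0.12. TFEB, a transcription factor of lysosomal genes, was the 1 gene lower, by -0.69 ± 0.17. Macrophages are rich in cathepsins, and all 9 macrophage markers measured were higher in fat. Their intensities summed to 1052 to 2560 on the muscle arrays, while the sums reached 5562 to 11105 for the abdominal and 5645 to 11533 for the subcutaneous depot. The part of these cells in the cathepsin differences was not tested.

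**Figure D2:**
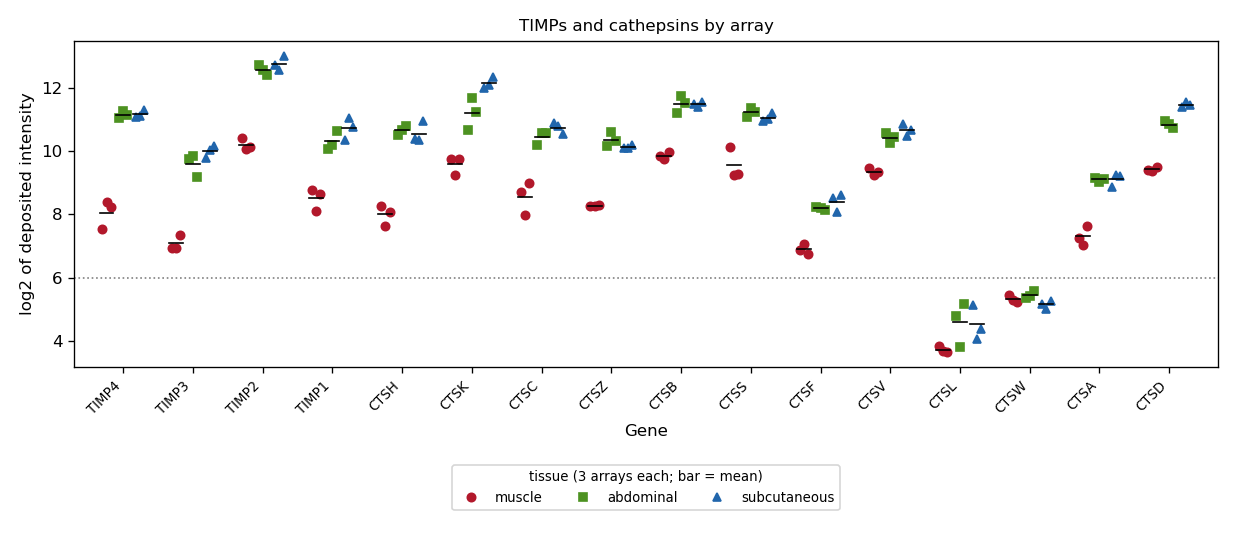
Levels of the 4 TIMPs and 12 cathepsins on each of the 9 arrays (log2 of the deposited intensity; black bars are tissue means), with a dotted line at the near-background level of 6. Muscle lies below both depots except for CTSW and, on 1 abdominal array, CTSL, both under the line; CTSK and CTSD are highest in subcutaneous fat.

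The 11 MMPs gave 5 genes higher in fat, 1 lower and 5 without a call. MMP19, a secreted matrix protease, had levels of 5.23, 5.06 and 4.83 in muscle, 7.13, 9.01 and 8.76 in abdominal fat and 7.13, 7.98 and 6.91 in subcutaneous fat. All adipose arrays were above muscle, with a spread within the depots far wider than in muscle, and the difference was 2.78 ± 0.39 or 6.88-fold (limma, adjusted p = 2.1e-04). MMP23, a membrane-anchored member, had levels of 6.26, 6.36 and 6.03 in muscle, 7.29, 7.21 and 7.95 in abdominal fat and 8.43, 8.39 and 8.41 in subcutaneous fat. Its arrays lay in the order muscle, abdominal, subcutaneous with no overlap, and fat exceeded muscle by 1.73 ± 0.17.

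MMP2, the gelatinase of fibroblasts and other stromal cells, followed the same order. Its levels were 8.47, 7.47 and 8.82 in muscle, 8.96, 9.44 and 9.30 in abdominal fat and 10.31, 10.30 and 10.56 in subcutaneous fat. Fat exceeded muscle by 1.56 ± 0.26 or 2.94-fold (limma, adjusted p = 6.22e-04). Of 9 fibroblast markers, 7 were higher in fat and none was called between the depots; their intensities summed to 12410 to 20391 on muscle arrays, 31937 to 43283 on abdominal and 41352 to 45508 on subcutaneous arrays. The part of these cells in the MMP2 difference was not tested.

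MMP14, a membrane collagenase that activates MMP2, had levels of 5.53, 5.92 and 5.61 in muscle, 6.07, 5.94 and 5.76 in abdominal fat and 7.45, 6.30 and 6.86 in subcutaneous fat. Abdominal fat overlapped muscle, and only the subcutaneous arrays stood above it. The difference of 0.71 ± 0.22 passed (limma, adjusted p = 0.0216), but a dimmer probe set of MMP14 was lower in fat by -0.42 (limma, adjusted p = 0.0465) and the remaining one gave 0.40 without a call. MMP14 was the 1 member, of 25 with several probe sets, whose probe sets were called in opposite directions between fat (both depots) and muscle. With the mean of its probe sets the difference was 0.23 (limma, adjusted p = 0.325), and the call was also lost without muscle replicate 1 or 3 (adjusted p = 0.0855 and 0.0617).

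MMP9, the gelatinase carried by neutrophils and macrophages, was higher in fat by 1.36 ± 0.45 (limma, adjusted p = 0.0273), a mean over depots that differed from each other. The call of MMP9 was lost without any 1 muscle array, without abdominal replicate 3 and without subcutaneous replicate 3 (adjusted p of 0.0531 to 0.0776). With array weights it was lost too (1.19, adjusted p = 0.0993 in limma). MMP3, a stromelysin, was dim and lower in fat by -0.50 ± 0.16 (limma, adjusted p = 0.0275), and lost its call without muscle replicate 1 or abdominal replicate 3 (adjusted p = 0.121 and 0.0563). The other probe sets of MMP3 gave -0.09 and -0.10 without a call, and the mean of the 3 gave -0.23 (limma, adjusted p = 0.101). MMP1, MMP13, MMP15 and MMP20 had no tissue mean above the near-background level, as did MMP3. MMP16, a membrane-anchored relative of MMP14, had a difference of 0.60 ± 0.34 (limma, adjusted p = 0.166), while a dimmer probe set of it was lower in fat, by -0.56 (limma, adjusted p = 1.87e-03), so its direction is unsettled. A dimmer probe set of MMP19 gave -0.10 without a call.

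Of the ADAM genes, the 2 widely expressed sheddases were the ones called. ADAM10, which cleaves Notch receptors and many other membrane proteins, had levels of 7.84, 7.99 and 8.17 in muscle, 9.87, 9.80 and 10.02 in abdominal fat and 8.99, 8.99 and 8.93 in subcutaneous fat. It formed 3 separate steps, and fat exceeded muscle by 1.44 ± 0.11 or 2.71-fold (limma, adjusted p = 3.99e-06). The other probe sets of ADAM10, both dimmer, gave 1.68 with a call and 0.57 without one. ADAM9 had levels of 9.24, 8.93 and 9.16 in muscle, 10.60, 10.08 and 10.51 in abdominal fat and 10.42, 10.27 and 9.96 in subcutaneous fat. Its depots overlapped each other and not muscle, with a difference of 1.20 ± 0.15 (limma, adjusted p = 1.23e-04). Dimmer probe sets of ADAM9 gave 1.10 with a call and 0.34 without one. The other 7 ADAM genes had differences from -0.26 to 0.14 without a call; ADAM12, an ADAM of myoblasts and preadipocytes, stood at -0.14 ± 0.15 (limma, adjusted p = 0.452). Of these 7, ADAM19 alone had a tissue mean above the near-background level. TSPAN14 and TSPAN15, tetraspanins that carry ADAM10 to the cell surface, were higher in fat by 1.35 ± 0.17 and 0.94 ± 0.17.

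The ADAMTS genes gave 2 higher, 2 lower and 3 without a call. ADAMTS4, a protease of aggrecan and versican, had levels of 5.32, 5.49 and 6.92 in muscle, 9.82, 10.45 and 10.23 in abdominal fat and 6.93, 9.15 and 7.03 in subcutaneous fat. Abdominal fat was uniformly high, and 2 subcutaneous arrays were barely above the highest muscle array. The difference of fat from muscle was 3.02 ± 0.51, or 8.12-fold (limma, adjusted p = 6.91e-04). ADAMTS1, of similar substrates, had levels of 8.71, 7.81 and 9.73 in muscle, 11.28, 11.57 and 11.66 in abdominal fat and 9.47, 10.75 and 10.43 in subcutaneous fat. Here a subcutaneous array fell below the highest muscle array, and the difference was 2.11 ± 0.39 (limma, adjusted p = 1.27e-03). VCAN, the versican core protein, was itself higher in fat by 2.15 ± 0.40, with its highest mean in subcutaneous fat.

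The ADAMTS genes that were lower in fat were faint. ADAMTSL2, a matrix protein that binds latent TGF-beta binding protein, had a muscle mean of 6.02, just over the near-background level, with levels of 6.19, 6.12 and 5.75 in muscle and 5.18 to 5.32 over the 6 adipose arrays, a difference of -0.74 ± 0.12 (limma, adjusted p = 5.09e-04). ADAMTS8, under that level in every tissue, differed by -0.77 ± 0.19 (limma, adjusted p = 6.68e-03). No call was made for ADAMTS5, another protease of aggrecan, at 0.60 ± 0.25 (limma, adjusted p = 0.0696), for the procollagen protease ADAMTS2 at 0.44 ± 0.24, or for ADAMTS6. A dimmer probe set of ADAMTS5 was called higher in fat, by 0.55 (limma, adjusted p = 0.0187).

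**Figure D3:**
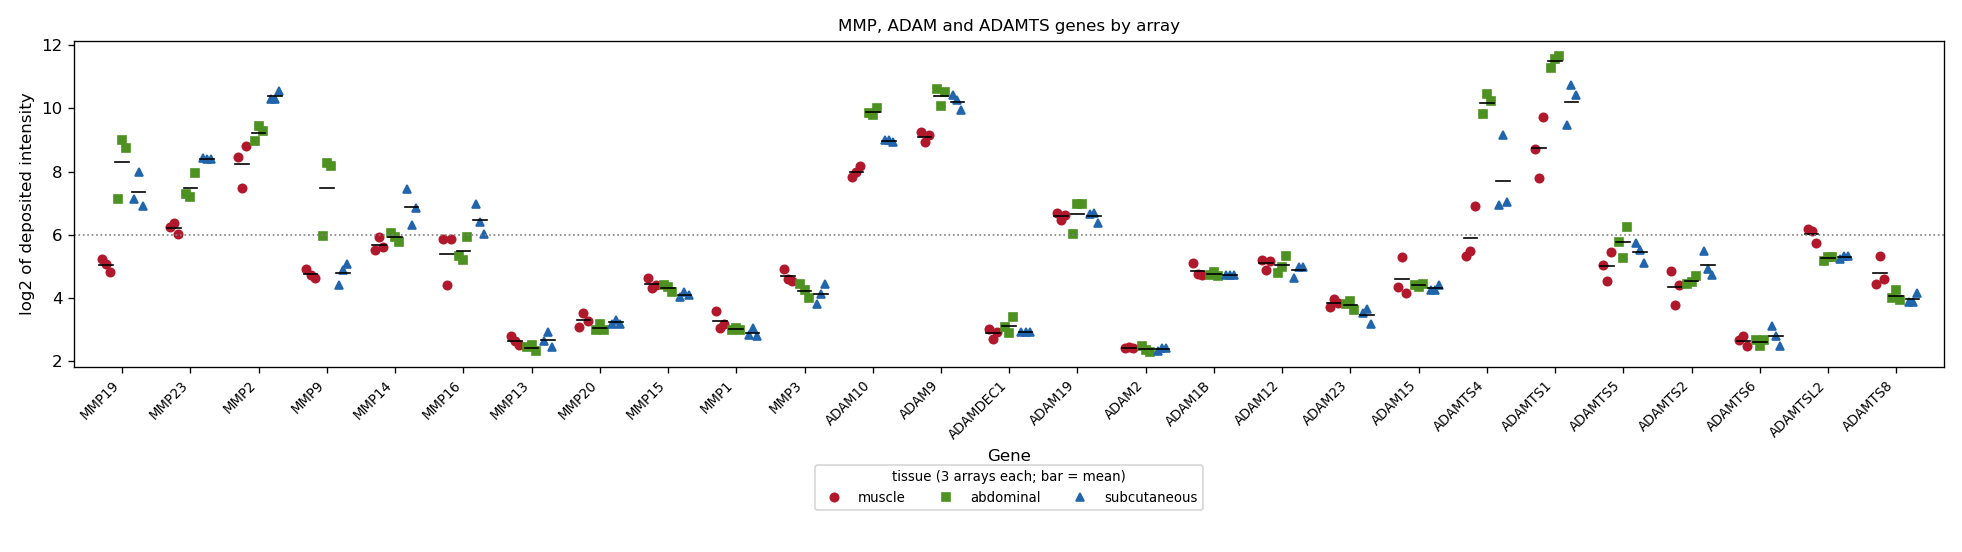
Levels of the MMP, ADAM and ADAMTS members on each array (log2 of the deposited intensity; black bars are tissue means), with a dotted line at the near-background level of 6. MMP9, ADAM10 and ADAMTS4 are highest in abdominal fat and MMP2 and MMP23 in subcutaneous fat, while most ADAM genes lie under the line in every tissue.

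The serpins are described by clade. The 7 SERPIN A genes, most of which encode plasma proteins made by the liver, gave 3 lower in fat, none higher and 4 without a call; at an unadjusted p under 0.05 the count was 5. For 6 of the 7, no tissue mean was above the near-background level. SERPINA3-7 was the brightest, at 6.20, 6.28 and 6.12 in muscle, 5.94, 5.70 and 5.37 in abdominal fat and 5.37, 5.45 and 5.50 in subcutaneous fat. It was lower in fat on every array, by -0.65 ± 0.13 (limma, adjusted p = 2.31e-03), and belongs to a group of near-identical cattle genes, so the probe set may read several of them. SERPINA11 differed by -1.09 ± 0.20, and SERPINA7, which carries thyroid hormone, by -0.48 ± 0.11. SERPINA1, the inhibitor of neutrophil elastase, stood at -0.26 ± 0.11 (limma, adjusted p = 0.0743). Of 8 liver markers measured, ALB and TF were higher in fat, by 1.44 and 3.28, AHSG was lower, by -0.65, and TTR had no call. The other liver markers, APOA2, APOB, FGB and APOH, had no call and were at or under the near-background level on all 9 arrays.

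The intracellular SERPIN B genes gave 3 of 4 higher in fat. SERPINB1, an inhibitor of neutrophil elastase, had levels of 7.93, 8.01 and 8.24 in muscle, 9.48, 9.74 and 9.60 in abdominal fat and 10.03, 10.33 and 9.96 in subcutaneous fat. The tissues were fully separate, and fat exceeded muscle by 1.80 ± 0.13 or 3.47-fold (limma, adjusted p = 2.64e-06). SERPINB8 was higher by 1.32 ± 0.23 (limma, adjusted p = 7.89e-04). SERPINB9, the inhibitor of granzyme B, had levels of 5.23, 5.62 and 5.28 in muscle, 6.60, 6.30 and 6.13 in abdominal fat and 5.33, 5.56 and 5.71 in subcutaneous fat. Abdominal fat stood apart and subcutaneous fat overlapped muscle. The difference over both depots was 0.56 ± 0.15 (limma, adjusted p = 9.74e-03), with 0.96 in abdominal fat and 0.15, without a call, in subcutaneous fat. Its other probe sets, both dimmer, had no call, and the mean of the 3 gave 0.09 (limma, adjusted p = 0.43). SERPINB6 was bright in all tissues and had no call, at -0.27 ± 0.14 (limma, adjusted p = 0.146).

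Of the 9 serpins of clades C to I, 4 were higher in fat and 2 lower. SERPING1, the inhibitor of complement C1 and kallikrein, had levels of 9.80, 9.49 and 9.87 in muscle, 11.80, 12.17 and 12.08 in abdominal fat and 11.77, 11.60 and 12.23 in subcutaneous fat. It was the serpin with the largest difference, 2.22 ± 0.16 or 4.65-fold (limma, adjusted p = 3.21e-06), and a further probe set gave 2.62. SERPINH1, the collagen chaperone of the endoplasmic reticulum, had levels of 9.52, 8.54 and 9.23 in muscle, 10.79, 10.55 and 10.80 in abdominal fat and 11.31, 11.04 and 11.21 in subcutaneous fat, a difference of 1.85 ± 0.19 (limma, adjusted p = 3.04e-05). SERPINF1, the secreted pigment epithelium-derived factor, was higher by 1.74 ± 0.27 (limma, adjusted p = 4.1e-04).

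SERPINF2, the inhibitor of plasmin, went the other way: 7.55, 7.77 and 7.61 in muscle, 7.07, 7.14 and 6.96 in abdominal fat and 7.23, 7.20 and 7.11 in subcutaneous fat. It was above the near-background level and lower on every adipose array, by -0.53 ± 0.10 (limma, adjusted p = 1.61e-03); a dimmer probe set gave -0.14 without a call. SERPINI1, or neuroserpin, and SERPINI2 were dim, with differences of 0.84 ± 0.25 and -0.33 ± 0.10. SERPINI1 lost its call without muscle replicate 2 or 3 (limma, adjusted p = 0.0674 and 0.0744), and SERPINI2 without abdominal replicate 1 or muscle replicate 1 or 2 (adjusted p = 0.0552, 0.0637 and 0.0784) and with quantile normalization (-0.22, adjusted p = 0.102). SERPINE2, an inhibitor of thrombin and plasminogen activators, had levels of 8.85, 8.25 and 8.93 in muscle, 9.07, 9.58 and 9.42 in abdominal fat and 8.27, 9.97 and 8.12 in subcutaneous fat. Subcutaneous replicate 2 held the highest level of all and the other two subcutaneous arrays were among the lowest, so the difference of 0.40 ± 0.37 did not pass (limma, adjusted p = 0.395). SERPINC1, or antithrombin, and SERPIND1 had no call.

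**Figure D4:**
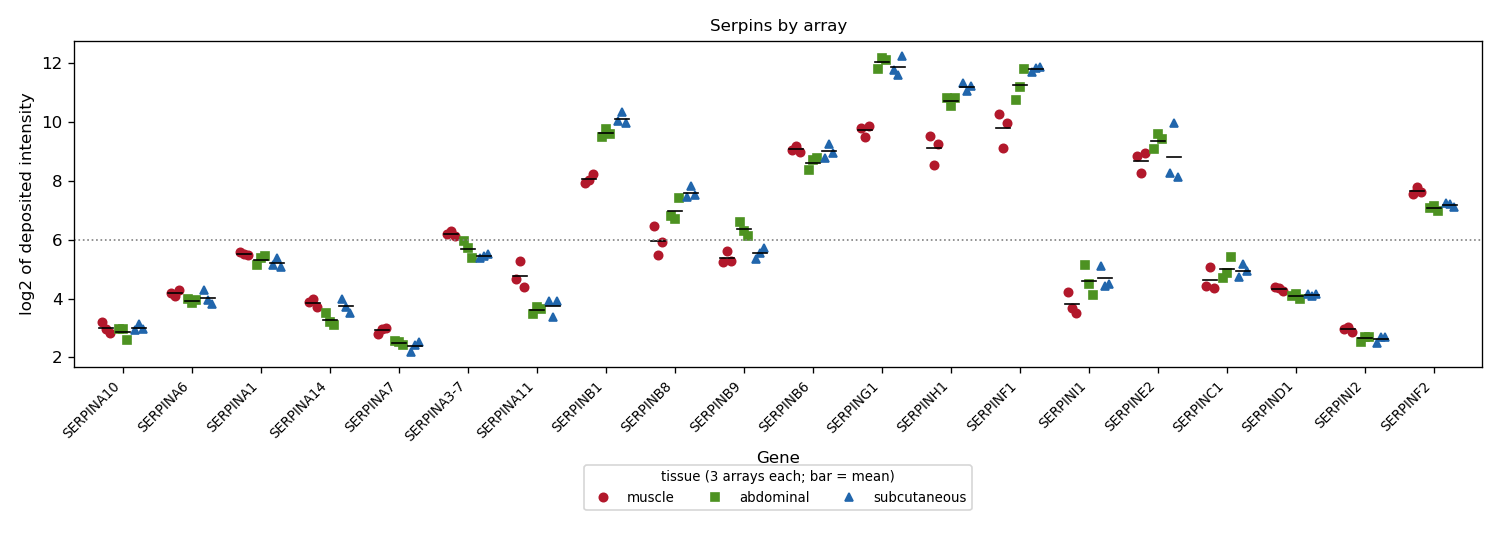
Levels of the 20 serpins on each array (log2 of the deposited intensity; black bars are tissue means), with a dotted line at the near-background level of 6. SERPING1, SERPINH1, SERPINF1, SERPINB1 and SERPINB8 are higher in both depots than in muscle, SERPINF2 is lower, and 6 of 7 SERPIN A genes lie under the line.

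Other proteases and inhibitors were counted from lists of related genes, to be read against the 32% of all genes called higher and 29.5% called lower. Of 10 measured genes of plasminogen activation, 5 were higher in fat and 2, PLG and F10, were lower and near background. PLAT, the tissue plasminogen activator, was higher by 3.19 ± 0.19 or 9.13-fold, its cofactor ANXA2 by 2.28 ± 0.21 and the urokinase gene PLAU by 0.65 ± 0.24. Of 7 calpain genes, 4 were higher and CAPN3, the calpain of skeletal muscle, was lower by -3.40 ± 0.16. Of 15 other inhibitors, 5 (33.3%, near the share of all genes) were higher and none lower, with A2M, a broad protease trap, at 2.74 ± 0.13 and TFPI, which inhibits tissue factor, at 2.07 ± 0.26. Of 11 other matrix proteases and convertases, 5 were higher and none lower, among them HTRA1 at 1.75 ± 0.15 and FAP, a protease of activated fibroblasts, at 1.21 ± 0.26. FURIN, which activates several MMP and ADAM proteins, had no call at 0.30 ± 0.16 (limma, adjusted p = 0.134). Of 11 substrates and partners of ADAM and MMP enzymes, 5 were higher and none lower.

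Each depot was also set against the same muscle arrays. In abdominal fat 29 members were higher and 8 lower than in muscle, where 29% of all genes were higher and 27.1% lower (46.6% of probe sets in either direction). In subcutaneous fat 29 were higher and 9 lower, beside 30.4% and 25.9% of all genes (47% of probe sets). ADAMTS4 stood at 4.25 in abdominal and 1.79 in subcutaneous fat, and MMP9 at 2.71 and 0.02. ADAMTS1 stood at 2.75 and 1.47, MMP2 at 0.98 and 2.14, CTSK at 1.60 and 2.56, and TIMP4 at 3.10 and 3.12. MMP14 and MMP16 were called in subcutaneous fat, at 1.18 and 1.09, and stood at 0.24 and 0.11 without a call in abdominal fat. A dimmer probe set of MMP16 was lower in subcutaneous fat than in muscle, by -0.38 (limma, adjusted p = 0.033). Of the 31 members higher in fat, 13 had their higher mean in abdominal and 18 in subcutaneous fat.

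Between the depots, 3 members passed: MMP9 and ADAM10 were higher in abdominal fat and CTSD was lower. All 3 lost their calls when the leading number of the sample title was fitted as a replicate block. That fit left out abdominal replicate 3, whose number no other array shares. Leaving out that array with no block also lost all 3 calls. Over all genes 0.808% were higher and 0.688% lower, and 1.31% of probe sets were called. At an unadjusted p under 0.05 the members had 16 of 63, where 18% of all genes did. None of the 24 inhibitors passed in limma, and 5 had an unadjusted p under 0.05. A dim probe set of CTSB was higher in abdominal fat, by 1.09 (limma, adjusted p = 0.043). Its other 5 probe sets had no call, and the brightest gave 0.01.

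MMP9 had levels of 5.95, 8.28 and 8.19 in abdominal fat, 4.42, 4.87 and 5.06 in subcutaneous fat and 4.93, 4.74 and 4.63 in muscle. Abdominal fat was above the others on all 3 arrays, and abdominal replicate 1 was far below its 2 companions. Abdominal exceeded subcutaneous fat by 2.69 ± 0.52 or 6.46-fold (limma, adjusted p = 0.0431), and exceeded muscle by 2.71, while subcutaneous fat differed from muscle by 0.02 (limma, adjusted p = 0.981). The summed intensity of 5 neutrophil markers was 1407, 3734 and 2982 in abdominal fat, 693, 1141 and 1332 in subcutaneous fat and 278, 480 and 240 in muscle, also lowest of its depot on abdominal replicate 1. S100A8 and S100A9, which carry most of that sum and are shared with monocytes, differed between the depots by 1.55 and 1.59 without passing. S100A12 had a mean of 7.72 in both depots, and the granule genes MPO and ELANE were under the near-background level on every array. Against muscle, 3 of the 5 neutrophil markers were higher in abdominal fat and 2 were lower, beside 29% and 27.1% of all genes. The macrophage sum was also lowest on abdominal replicate 1, at 5562 against 11105 and 9039, but was as high in subcutaneous fat, at 5645, 11533 and 11303. The part of such cells in the MMP9 difference was not tested. Leaving out any 1 array other than abdominal replicate 1 took the adjusted p of MMP9 above the threshold, to between 0.0513 and 0.136, with differences of 2.29 to 2.83. A fit to the adipose arrays alone also lost the call (2.69, adjusted p = 0.0751 in limma).

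ADAM10, whose arrays formed separate steps, was higher in abdominal than in subcutaneous fat by 0.93 ± 0.13 or 1.91-fold (limma, adjusted p = 0.0148). Its other probe sets gave 0.82 with a call and 0.84 without one, and the mean of the 3 gave 0.86 (limma, adjusted p = 0.0775). The call was lost without abdominal replicate 3 (0.87, adjusted p = 0.0658) and without subcutaneous replicate 1 or 3 (adjusted p = 0.0528 and 0.0547 in limma). CTSD was lower in abdominal fat by -0.62 ± 0.11 (limma, adjusted p = 0.0374), with no overlap of its arrays. Without any 1 adipose array, or without muscle replicate 1, its adjusted p rose to between 0.0558 and 0.13, at differences of -0.67 to -0.56.

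Several members had depot differences as large without passing. ADAMTS4 was higher in abdominal fat by 2.46 ± 0.59 (limma, adjusted p = 0.0776), and by 3.18 without subcutaneous replicate 2 (limma, adjusted p = 0.0297). Differences towards subcutaneous fat were -1.16 ± 0.30 for MMP2 (limma, adjusted p = 0.0982), -0.93 ± 0.19 for MMP23 (adjusted p = 0.0523), -0.96 ± 0.25 for CTSK (adjusted p = 0.0993) and -0.94 ± 0.25 for MMP14 (adjusted p = 0.112). For each of these 4 genes all 3 subcutaneous arrays were above all 3 abdominal arrays. MMP2 passed without muscle replicate 2 (adjusted p = 0.0233 in limma), and MMP23 without abdominal replicate 3 or muscle replicate 3 (adjusted p = 0.0245 and 0.049). SERPINB9 stood at 0.81 ± 0.17 towards abdominal fat (limma, adjusted p = 0.0557), and at an adjusted p of 0.0454 without muscle replicate 2. PRSS23, a serine protease outside the families, was lower in abdominal fat by -1.09 ± 0.18 (limma, adjusted p = 0.0293).

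The spread within a tissue was uneven among members. The median SD was 0.20 in muscle, 0.16 in abdominal and 0.19 in subcutaneous fat. The largest were 1.32 for MMP9 in abdominal fat, 1.25 for ADAMTS4 and 1.03 for SERPINE2 in subcutaneous fat, 1.02 for MMP19 in abdominal fat and 0.96 for ADAMTS1 in muscle. Subcutaneous replicate 2 was the highest of its tissue for ADAMTS4, ADAMTS1, MMP19 and SERPINE2.

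Neighbouring genes did not always go the same way. By the ARS-UCD2.0 gene table, 27 of the 63 members had another member starting within 1 Mb, in 10 clusters. SERPINF1 was higher in fat and its neighbour SERPINF2 lower, and SERPINI1 and SERPINI2 also had opposite calls. CTSK and CTSS were both higher, as were CTSA and MMP9. The cluster of 6 SERPIN A genes had 2 lower and none higher, and that of MMP13, MMP3, MMP1 and MMP20 had 1 lower.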

How the data were processed

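RMA is named in the submitters' processing notes, without a version. The deposited values are linear intensities, from 3.06 to 17450.5, although the plan assumed log2 values. They were put on the log2 scale and used without added normalization or filter. The number of arrays limits the precision. Of 24128 probe sets, 112 controls were left out; 13292 had 1 symbol, 86 several and 10638 none, and 13263 were named through the gene identifier. Tissue means were estimated from all 9 arrays together by limma 3.58.1 (R 4.3.3, with 6 residual and 3.752 prior degrees of freedom). Tests were two-sided, with Benjamini-Hochberg adjustment over 24016 probe sets and a threshold of 0.05. The fit was also run on simulated data with independent noise on every array, which does not cover arrays that share an animal. An SE is moderated. Figures were drawn with matplotlib 3.10.9 in Python 3.11.15, from tables made with numpy 2.4.6 and pandas 2.3.3.

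Members, lists and tests were chosen with earlier results of these data known. Named with values were, per family, up to 4 passing members with the largest rise and 3 with the largest fall, members called between the depots, and 19 chosen genes; further members were added after their values were seen. No sequence was used here, so promoter motifs were not searched. Alternatives changed the prior variance, filter, scaling, array weights, pairing by the leading number of the sample title, arrays fitted, probe set per gene, threshold and each array in turn.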

Additional observations from a re-analysis of the deposited data

Results flagged for a closer look

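For 3 members the difference from muscle was not the same in both fat depots, by a test of the difference between the depots (limma, adjusted p under 0.05). MMP9 was higher in abdominal than in subcutaneous fat by 2.69 (adjusted p = 0.0431), and stood at 2.71 and 0.02 above muscle in these depots. ADAM10 was higher in abdominal fat by 0.93 (adjusted p = 0.0148), at 1.90 and 0.97 above muscle. CTSD was lower in abdominal fat by -0.62 (adjusted p = 0.0374), at 1.41 and 2.03 above muscle. Each of the 3 lost its call under at least one alternative.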

How the results depend on the processing

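No called difference of the 39 named members changed sign under any alternative run. Of 37 of them called between fat and muscle, 30 kept their call under every alternative that still held their probe set. CTSL, MMP3, MMP9, MMP14, SERPINB9, SERPINI1 and SERPINI2 did not. ADAMTS8, ADAMTSL2, SERPINA7 and SERPINA11 count among the 30, but the filter on dim probe sets removed them and so did not test them. The count of proteases lower in fat, 3, became 5 with array weights, 6 with arrays centred on their medians and 0 with dim probe sets removed (12698 kept, with 34 members). The count of inhibitors lower, 5, became 10 with centring, which shifts the median of all differences by -0.12, and 2 without dim probe sets. Between the depots the 3 calls became 8 with array weights and 0 at an adjusted p under 0.01 (10 members at an unadjusted p under 0.01), and leaving out each array in turn gave 0 to 4. The count was 0 without subcutaneous replicate 1 or 3 (limma; 13 and 15 at an unadjusted p under 0.05), 1 without abdominal replicate 2 or 3 or muscle replicate 1, and 4 without muscle replicate 2. With the leading title number as a replicate block, MMP9 (limma, adjusted p = 0.11), ADAM10 (0.0804) and CTSD (0.195) all lost their calls between the depots. The 1 member called there was MMP23 (-1.21, adjusted p = 0.0464, limma), and 37 were called between fat and muscle, against 39. This block fit left out abdominal replicate 3, whose number no other array shares. Without that array and with no block, the same 3 calls were lost as well (limma, adjusted p = 0.136, 0.0658 and 0.13). With a random block on all 9 arrays, 5 members were called between the depots. The 7 pairs of arrays that share a number had deviations correlated at 0.043 to 0.362, and 5 were over 0.1. The 20 other pairs lay between -0.324 and 0.17, and 1 was over 0.1. Same-numbered pairs of fat arrays reached 0.33 and 0.362. Whether the numbers mark shared animals is not known. The main fit treats the arrays as unpaired because the labels state no pairing. The cause of these shifts was not tested. A fit to only the tissues compared gives no separate value for both depots against muscle. Dim signals limit 27 members.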
